A study of Arabidopsis thaliana with 18 samples.

Results

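Skipped exon bins are the stretches of annotated exon that some transcripts of a gene include and others leave out. The deposited table of alternative splicing bins gives the reads counted in each such stretch, and 913 of its 7973 bins carry the event label for exon skipping. A bin entered the tests when it averaged 10 or more counts over the 18 libraries and its locus averaged 50 or more, with at least 10 counts in every library. These minima kept 337 skipped exon bins in 267 loci, among 3809 bins of every event class. Of the 576 skipped exon bins left out, 117 lay in loci under the locus minima and 459 missed only the bin mean. Just inside the limit stood bin E008 of AT3G28080, with a mean of 10 counts, and just outside it bin E014 of AT1G55325, with a mean of 9.889 counts. The measure used throughout is the bin share, the count of the bin as a percent of the count of its locus, so a higher share means more reads over the exon for each read of the gene.

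The libraries came from whole plants of Arabidopsis thaliana, aged 9 days and grown in continuous white light, and poly(A) RNA was sequenced. The groups were gemin2 mutant plants and wild type plants (WT, ecotype Col), each sampled at 22 °C or following a move to 10 °C for 1 h or for 24 h, with 3 libraries in each of the 6 groups. The labels name neither the gemin2 allele nor the number of plants behind a library, and all groups shared the medium, the light and the growth at 22 °C. Library letters A, B and C come from the table's columns, and nothing says that libraries of a group came from separate cultures, so the spread behind every p-value is that of these libraries and may be technical.

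In plants as in animals, an exon is joined into the messenger RNA when the U1 small nuclear ribonucleoprotein (snRNP) recognises the GT at the start of the intron behind it and the U2 snRNP recognises the branch point ahead of its own AG. An exon whose splice sites are poorly recognised can be skipped, or an intron beside it can be kept. GEMIN2 takes part in assembling the Sm ring, the protein core that these snRNPs share, and in plants retained introns are the most common kind of alternative splicing, with skipped exons a smaller class.

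The exons printed here are coding exons with falls or rises between gemin2 and WT that are described at length, and they are not a ranking by size. Each sequence runs 5′ to 3′ on the strand of the gene, in lower case, and the capitals mark the AG of the intron ahead and the GT of the intron behind. Sequences and coordinates are those of RefSeq for TAIR10.1, and 98.67% of the introns of the deposited table begin with GT and end with AG at these positions.
AT3G06760 bin E005 (chr3:2133539-2133583, plus strand): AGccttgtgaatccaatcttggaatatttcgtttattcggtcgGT
AT1G13350 bin E010 (chr1:4575913-4575997, minus strand): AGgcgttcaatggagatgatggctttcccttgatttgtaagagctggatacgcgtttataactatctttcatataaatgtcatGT
PRP39 bin E009 (chr1:1054283-1054387, plus strand): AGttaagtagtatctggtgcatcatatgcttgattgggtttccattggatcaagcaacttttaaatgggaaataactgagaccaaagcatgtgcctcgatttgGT
PRP39 bin E010 (chr1:1054463-1054530, plus strand): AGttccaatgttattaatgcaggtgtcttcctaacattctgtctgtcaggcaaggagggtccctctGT
AT5G53850 bin E012 (chr5:21863651-21863702, minus strand): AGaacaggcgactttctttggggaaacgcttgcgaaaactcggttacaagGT
XBAT35 bin E008 (chr3:8323097-8323172, plus strand): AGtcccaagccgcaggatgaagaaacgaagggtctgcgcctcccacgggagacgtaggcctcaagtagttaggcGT
ATARI5 bin E004 (chr1:1780021-1780067, plus strand): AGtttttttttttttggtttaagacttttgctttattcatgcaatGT
AT5G11200 bin E008 (chr5:3569151-3569197, plus strand): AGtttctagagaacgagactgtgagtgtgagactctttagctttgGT

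For leading bins that lie in an untranslated region of at least 1 transcript, the end of the exon is shown with the start of the intron, 12 exon bases and 6 intron bases, with the GT of the intron in capitals.
AT4G08460 bin E005 (chr4:5378692-5378709, minus strand): gtgtagggcaagGTaagg
AT5G47455 bin E006 (chr5:19251693-19251710, plus strand): catctttatcaaGTacga
PTB2 bin E009 (chr5:21570828-21570845, minus strand): gaaagagcacatGTgtgt
LNK1 bin E007 (chr5:25675905-25675922, minus strand): tacattcatgagGTgagt
RS40 bin E005 (chr4:13025845-13025862, plus strand): ccataatgcaagGTctgt
AT5G54940 bin E002 (chr5:22309210-22309227, minus strand): cgaatcggattgGTatga
AT5G62130 bin E006 (chr5:24952047-24952064, minus strand): tgttgtaataagGTctta

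As a class these exons were short. Their median width was 81 nt, with a range of 6 to 1685 nt, and 334 of 337 matched an exon of RefSeq from end to end. In 325 of 337 RefSeq also lists a transcript of the gene that leaves the exon out, and 327 had AG ahead and GT behind. Coding sequence in every transcript that holds the exon was found for 251 bins, while 84 lay in an untranslated region of at least 1 transcript and 2 in noncoding transcripts. Of the 251 coding exons, 152 (60.6%) had a length divisible by 3, which keeps the reading frame when the exon is skipped, and their median width was 78 nt. Over all 97498 internal coding exons of RefSeq, 44.9% were divisible by 3 and the median width was 115 nt. The last exon base was G in 245 members (72.7%) and the fifth intron base was G in 169 (50.1%), beside 76.8% and 50.4% of all internal coding exons. These letters pair with the U1 RNA, and their shares are given as a description of the exons, with no test.

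The bins were spread over the genome, with 82 on chromosome 1, 45 on chromosome 2, 75 on chromosome 3, 52 on chromosome 4 and 83 on chromosome 5. In 221 cases the bin was the sole member in its locus, and the most in a locus was 6, so bins of a locus share their locus count. Another gene overlapped 4 bins, and the library kit does not mark strand, so the source of those reads is uncertain.

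Libraries held between 15675913 and 53766089 gene counts and between 38805 and 110812 counts in the 337 bins. Chloroplast genes took 0.232 to 3.17% of the counts in 17 libraries and 17.6% in library C of gemin2 at 22 °C. Markers of shoot and of root were found in every library of these whole plants. The summed shoot markers stood at 26000 to 32300 CPM in gemin2 against 39600 to 42600 CPM in WT at 22 °C, at 32800 to 38800 against 36000 to 40100 after 1 h and at 18900 to 24200 against 27200 to 28000 after 24 h. LHCB1.1, a marker of that sum, went the other way after 1 h, at 12300 to 15800 CPM in gemin2 against 8900 to 9490 CPM in WT. LHCB2.1, also in the sum, then overlapped, at 3630 to 5820 CPM in gemin2 against 3210 to 3670 CPM in WT. Only RBCS1A and RCA, the other markers of the sum, were lower in gemin2 after 1 h. The summed root markers stood at 80.2 to 99.7 CPM in gemin2 against 94.4 to 131 CPM in WT at 22 °C, at 96.9 to 102 against 135 to 156 after 1 h and at 125 to 167 against 140 to 197 after 24 h. Most of the root sum came from a single marker, AT5G43350, at 58.3 to 158 CPM over the libraries. The root marker COBL9, at 1.76 to 4.15 CPM, overlapped between the genotypes in each condition. The part of these markers in the bin results was not tested, and in bulk samples fewer cells of a type and less RNA per cell cannot be told apart. Library A of gemin2 stood apart from B and C after 1 h at 10 °C, with a mean chi-square per bin of 10.1 and 9.24 against 1.96 for B with C. The medians were closer, at 1.3 and 1.48 against 0.808. Where shares differ this chi-square grows with depth, and that library A was the deepest, with 53766089 gene counts. The 24 h values of library A were 8.31 and 6.09 against 2.41 in WT, and 8.72 and 6.33 against 6.1 in gemin2, where A was barely further from C than B was. In WT after 1 h the pair B and C gave 10.2, beside 5.49 and 3.75 for A with B and with C. Counts are also given without library C of gemin2 at 22 °C, library A of gemin2 after 1 h and library A of both genotypes after 24 h, called the libraries that stood apart, and their loss is named where it ends a call.

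The targeted gene was low in every gemin2 library. GEMIN2 (AT1G54380) stood at 4.2 ± 0.559, 2.98 ± 0.153 and 5.31 ± 0.449 CPM (TMM-scaled) in gemin2 for 22 °C, 1 h and 24 h of cold (SD, n = 3 each), and at 14.7 ± 1.41, 11.1 ± 0.748 and 21.1 ± 0.477 CPM in the matching WT groups. The log2 changes were −1.81, −1.90 and −1.99, with adjusted p-values of 1.34e-08, 4.09e-09 and 3.42e-10 in edgeR's quasi-likelihood test over all genes. Every gemin2 library lay below every WT library of its condition.

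Calls of this class between gemin2 and WT went both ways after 1 h of cold and were mostly falls after 24 h. At 22 °C, 4 bins had a higher share in gemin2 and 4 a lower one, which is 2.37% of the 337 and near the 2.55% of all 3809 bins (1.76% higher and 0.788% lower). After 1 h at 10 °C, 14 bins were higher and 10 lower in gemin2, which is 7.12%, beside 8.58% of all bins (6.17% higher and 2.42% lower). After 24 h at 10 °C, 7 bins were higher and 19 lower, which is 7.72%, beside 5.8% of all bins. A call means an adjusted p under 0.05 in edgeR's quasi-likelihood test of the bin counts with the locus count as offset, with Benjamini-Hochberg adjustment over all 3809 bins.

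Lower calls after 24 h made up 5.64% of the skipped exon bins and 1.26% of all bins, while higher calls made up 2.08% and 4.54%. Retained intron bins gave 81 higher and 11 lower calls in gemin2, bins with an alternative 5′ splice site 21 and 6, bins with an alternative 3′ splice site 11 and 5, and bins with several events 53 and 7. Among these 5 classes the skipped exon bins alone had more lower than higher calls after 24 h, and the difference between classes was not tested. The median log2 change of the skipped exon bins stayed near 0 in each condition, at −0.02, 0.07 and 0.01, beside 0.02, 0.09 and 0.07 over all bins. In its typical share the class was also alike between groups, with group medians from 7.37 to 8.59% of the locus count.

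Counts depended on single libraries. Leaving out library A of gemin2 gave 42 calls after 1 h (27 higher, 15 lower) and 43 after 24 h (17 higher, 26 lower). Leaving out library A of WT gave 7 calls after 1 h. Over all bins these fits gave 573, 403 and 137 calls, beside 327 after 1 h and 221 after 24 h with every library. The 22 °C count was 1 without library A of gemin2, 5 without B and 4 without C, and 4 without library A or B of WT. For all bins it was 61, 63, 64, 69 and 64 in that order, beside 97 with every library. After 1 h the class count was 8 without library B of gemin2, 9 without C and 10 without library B of WT, beside 118, 134 and 111 over all bins. Without every library that stood apart, the counts were 16 at 22 °C, 40 after 1 h and 35 after 24 h, with 20 of the 35 lower in gemin2. The counts over all bins were then 154, 673 and 372. Without the locus offset, which then also counts changes of the gene itself, the 24 h comparison gave 30 higher and 46 lower calls, beside 789 calls over all bins.

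**Figure D1:**
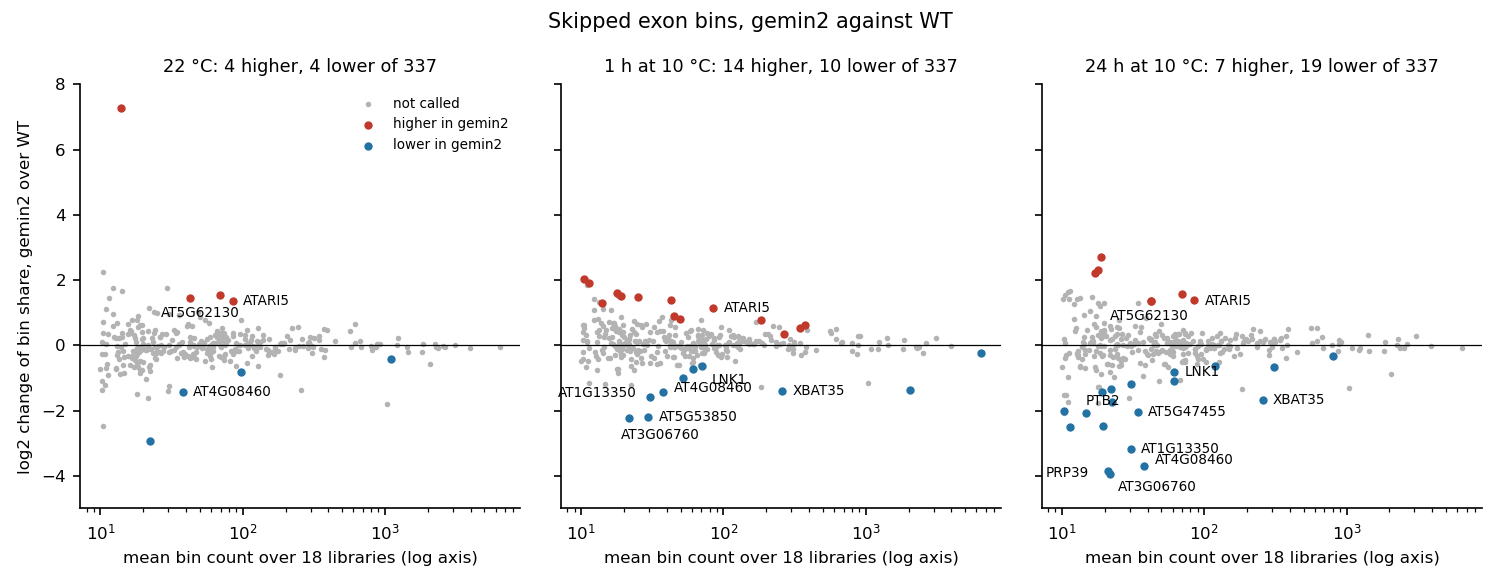
Each point is 1 of the 337 skipped exon bins, with its mean count over 18 libraries on a log axis and its log2 change of share, gemin2 over WT, on the other axis. Red points were higher and blue points lower in gemin2, and after 24 h at 10 °C the 19 blue points reach down to −3.94 while the 7 red points stay at or below 2.70.

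**Figure D2:**
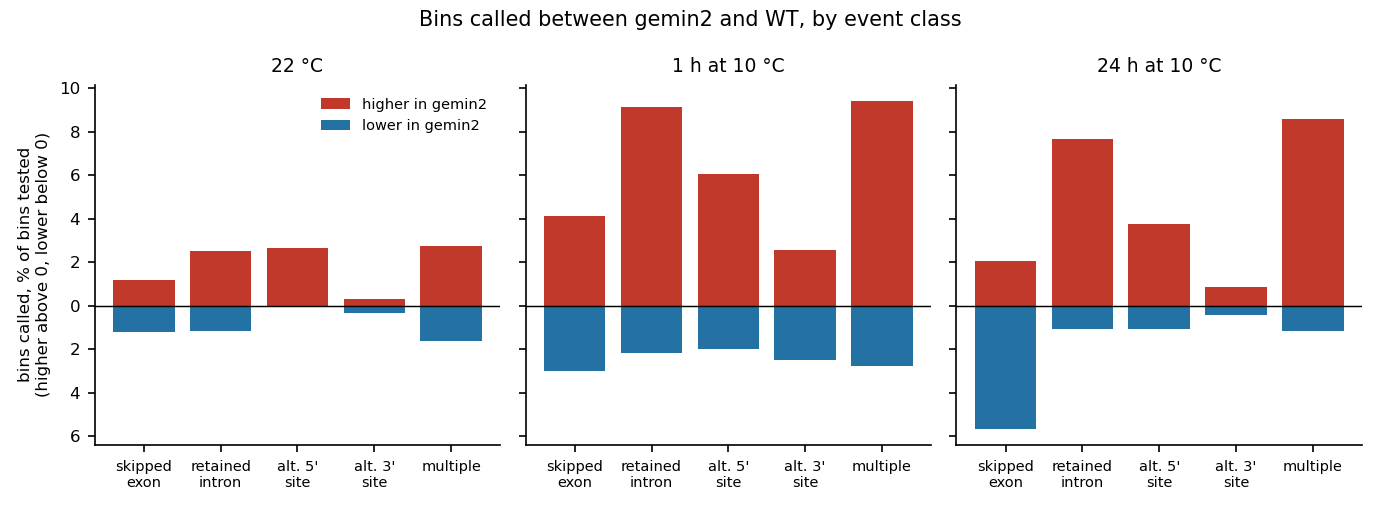
Bars give the percent of tested bins called higher in gemin2 (above 0) and lower (below 0) for 5 event classes in 3 conditions. After 24 h at 10 °C the blue bar of skipped exons reaches 5.64%, and the red bars of retained introns and of bins with several events reach 7.66% and 8.62%.

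Over the 3 comparisons 45 bins in 39 loci were called at least once. Of these, 34 were called in 1 condition, 9 in 2 and 2 in all 3, and none was called in opposite directions. The same tally was not made over all bins, so whether these numbers are particular to the class was not tested. Libraries of the groups did not overlap in 73, 84 and 87 members (21.7, 24.9 and 25.8%) at 22 °C, after 1 h and after 24 h, beside 22.7, 27.8 and 21.5% of all bins. The called bins changed by a median of 1.44, 1.33 and 1.7 on the log2 scale, regardless of direction. The gene level of the locus changed as well in 3 of 8, 13 of 22 and 13 of 24 loci with a called bin, beside 30, 41.9 and 49.8% of the 267 loci with a member and 21.1, 34.4 and 40.2% of all genes tested.

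The exons that fell furthest in gemin2 after 24 h at 10 °C were nearly absent there. Bin E005 of AT3G06760, annotated in RefSeq as a member of the drought-responsive family, is a coding exon of 41 nt, a length not divisible by 3. Its share after 24 h was 0, 0.256 and 0.519% in gemin2, against 3.33, 5.3 and 5.7% in WT. The 0 is 0 of 508 locus counts, an upper limit of 0.591% by counting error alone, and every gemin2 library lay below every WT library. The log2 change was −3.94 ± 0.59 (SE) with an adjusted p of 1.33e-04, and it lay between −4.86 and −3.10 under the alternatives tried.

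The same exon was already low after 1 h, with 2.19, 0.922 and 1.44% in gemin2 against 8.66, 5.93 and 7.31% in WT. That fall was −2.24 ± 0.39 on the log2 scale (adjusted p = 0.00118). At 22 °C the shares were 0.955, 1.64 and 0.903% in gemin2 and 1.93, 2.24 and 6.33% in WT, and the difference of −1.62 ± 0.51 missed the threshold (adjusted p = 0.0941). The shares did not overlap in any of the 3 conditions, although the WT value of 6.33% stood far above the other WT libraries at 22 °C. The gene itself rose after 24 h by 0.86 on the log2 scale.

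Bin E005 of AT4G08460, a gene of unknown function, was lower in gemin2 in all 3 conditions. It is 124 nt long and lies in an untranslated region of at least 1 transcript. After 24 h its share was 0, 0.106 and 0.178% in gemin2 against 1.57, 1.18 and 1.05% in WT, a log2 change of −3.69 ± 0.54 (adjusted p = 1.26e-04). The 0 is 0 of 2448 locus counts and allows a share of up to 0.123%, and the groups were far apart. After 1 h the shares were 1.4, 1.65 and 0.96% in gemin2 against 3.15, 4.06 and 3.68% in WT (log2 change −1.44 ± 0.31, adjusted p = 0.00667). At 22 °C they were 0.984, 1.44 and 1.27% in gemin2 against 4.92, 1.81 and 2.85% in WT (−1.43 ± 0.35, adjusted p = 0.0275). The 22 °C call was lost without any 1 of the gemin2 libraries A, B and C or WT library A, with adjusted p up to 0.25.

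Bin E010 of AT1G13350, which RefSeq annotates as a protein kinase, is an exon of 81 nt that keeps the frame when skipped. Its share after 24 h was 0.344, 0.542 and 0.534% in gemin2 against 3.74, 5.59 and 3.86% in WT. The groups were separated by several fold, with a log2 change of −3.17 ± 0.48 (adjusted p = 1.56e-04) that stayed between −3.27 and −2.75 under the alternatives. After 1 h the exon fell by 1.58 ± 0.33 on the log2 scale (adjusted p = 0.00641), with 2.4, 3.23 and 2.59% in gemin2 against 7.27, 9.8 and 7.28% in WT. At 22 °C the shares of 2.21, 1.58 and 3.34% in gemin2 and 6.67, 1.99 and 7.61% in WT overlapped, and that difference missed the threshold (adjusted p = 0.0833).

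A pair of PRP39 exons fell together. The yeast protein of that name belongs to the U1 snRNP. Bin E009, 101 nt long, had shares of 0.0223, 0.0589 and 0.0345% in gemin2 after 24 h, from 1, 3 and 2 counts, against 0.85, 0.755 and 0.211% in WT, from 27, 52 and 9 counts. All gemin2 libraries lay below all WT libraries, with a log2 change of −3.85 ± 0.64 (adjusted p = 4.03e-04). Bin E010, 64 nt long and named here after its values were seen, had 0.0223, 0.0982 and 0.0518% in gemin2 against 0.567, 0.334 and 0.164% in WT (−2.50 ± 0.54, adjusted p = 0.00516).

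The 101 and 64 nt of the PRP39 exons add up to 165 nt, which is divisible by 3, whereas each alone is not, and 1 RefSeq transcript holds both. The exons were rare in WT too, with shares of E009 between 0.211 and 1.44% in the 9 WT libraries. Without the libraries that stood apart E010 missed the threshold (adjusted p = 0.0791). After 1 h the shares of E009 overlapped, with 0.616, 0.746 and 0.295% in gemin2 and 0.395, 0.613 and 0.797% in WT (log2 difference −0.13 ± 0.43). At 22 °C they were 0.314, 0.791 and 0.495% in gemin2 and 0.782, 1.44 and 1.12% in WT (−1.03 ± 0.46, adjusted p = 0.265), also with overlap. Within gemin2 the exon fell by 3.68 ± 0.66 on the log2 scale between 22 °C and 24 h at 10 °C (adjusted p = 0.00196).

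**Figure D3:**
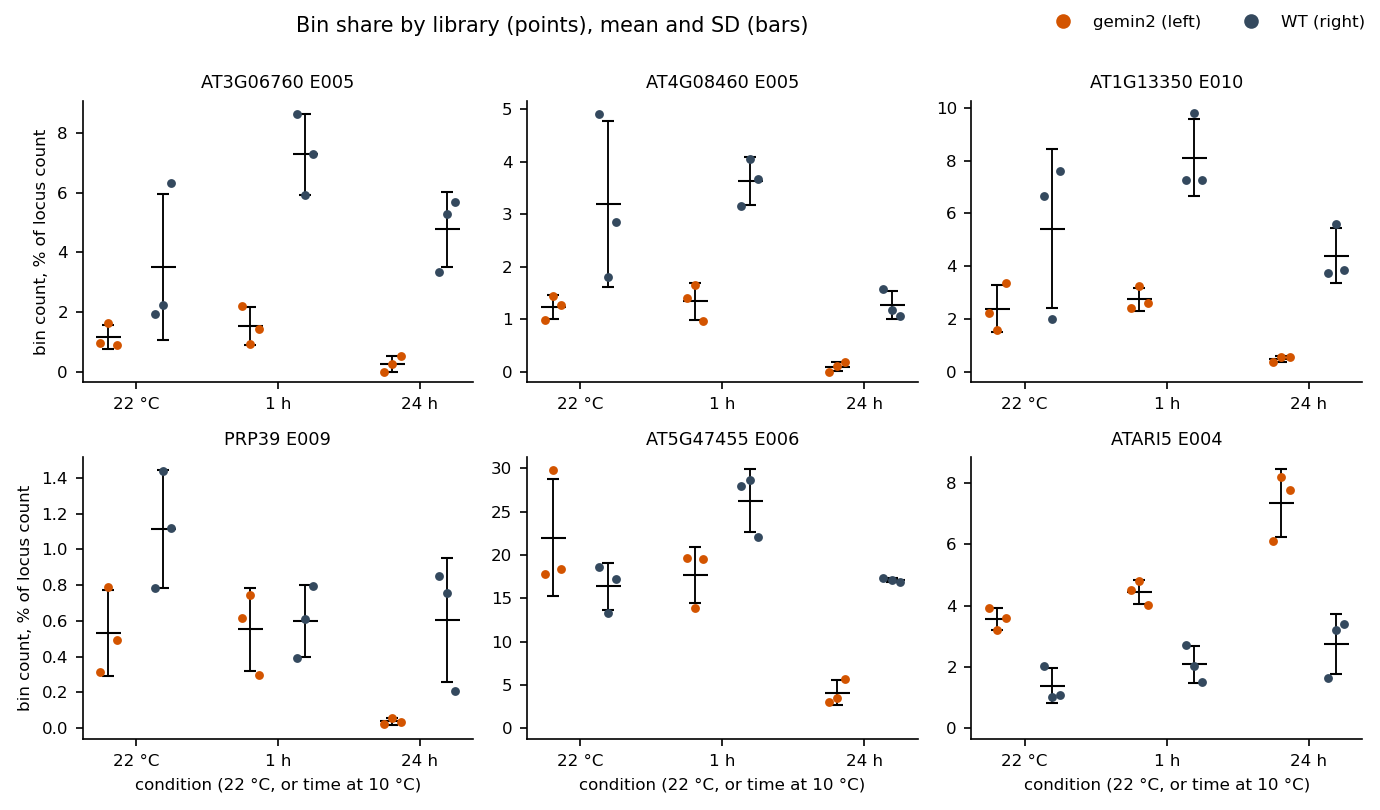
Points are libraries, with gemin2 left and WT right in each condition, and bars give mean and SD (n = 3) of the bin share in percent of the locus count. In 5 panels the gemin2 points lie below the WT points after 24 h at 10 °C, down to 0% for AT3G06760 and AT4G08460, and in the ATARI5 panel they lie above them in all 3 conditions.

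Bin E006 of AT5G47455, whose product is uncharacterized, had its low shares in gemin2 after 24 h. After 24 h it was 3.02, 3.5 and 5.71% in gemin2 against 17.3, 17.1 and 16.9% in WT, a log2 change of −2.05 ± 0.27 (adjusted p = 5.03e-05). At 22 °C the shares were 17.8, 29.8 and 18.4% in gemin2 and 18.6, 13.3 and 17.2% in WT, with overlap and no call. After 1 h they were 19.6, 13.9 and 19.5% in gemin2 and 28, 28.7 and 22.1% in WT (−0.57 ± 0.24, adjusted p = 0.155). The genotype by 24 h cold interaction was −2.41 ± 0.43 (adjusted p = 0.0349), and this was the sole interaction called among the 337 bins (0.297%), beside 0.0525% of all bins (0.0263% in each direction). The shares rest on 8, 9 and 16 counts in gemin2 against 86, 95 and 61 in WT after 24 h, and on 19, 28 and 21 against 11, 4 and 10 at 22 °C. The interaction was lost without any 1 of 10 of the 12 libraries, the exceptions being library A of WT at 22 °C and library C of gemin2 after 24 h, with adjusted p up to 0.108, whereas the 24 h difference between the genotypes held in every such fit. Without the libraries that stood apart the interaction was −2.34 (adjusted p = 0.096).

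XBAT35 encodes a ubiquitin ligase whose splice isoforms are known to differ in nuclear localisation, and its bin E008 is a coding exon of 72 nt. Its share after 1 h was 18.8, 6.38 and 5.7% in gemin2 against 27.5, 27 and 28% in WT. After 24 h it was 15.9, 4.01 and 5.19% in gemin2 against 26.9, 25 and 25.9% in WT. Library A of gemin2 stood between the other gemin2 libraries and WT in both conditions. The log2 changes were −1.39 ± 0.41 (adjusted p = 0.0396) and −1.67 ± 0.43 (adjusted p = 0.021). Without library A of gemin2 they were −2.19 (adjusted p = 7.64e-04) and −2.49 (adjusted p = 4.27e-04).

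The XBAT35 exon at 22 °C had 6.13, 3.62 and 6.07% in gemin2 against 21.3, 11.2 and 7.48% in WT, with no overlap but a wide spread in WT (−1.37 ± 0.48, adjusted p = 0.148). The XBAT35 call after 1 h was lost without gemin2 library B or C or any WT library (adjusted p up to 0.193), and that after 24 h without gemin2 library B or C or WT library A or C (up to 0.142). The level of the gene itself did not pass the test in any of the 3 comparisons.

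AVP1, the proton-pumping pyrophosphatase of the vacuole, showed the same library pattern in its bin E008, a coding exon of 60 nt. After 1 h it had 15.5, 5.69 and 5.88% in gemin2 against 24.5, 28.9 and 16.8% in WT, and library A of gemin2 was again the highest of its group. The log2 change was −1.37 ± 0.35 (adjusted p = 0.0171), and −2.02 without that library (adjusted p = 2.73e-04). Leaving out gemin2 library B or C or WT library A or B ended the call (adjusted p up to 0.11). Both adjoining introns of AVP1 fell as well after 1 h, by 1.40 ± 0.30 and 1.78 ± 0.40 on the log2 scale.

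AT5G53850, annotated as a haloacid dehalogenase-like hydrolase, has a coding exon of 48 nt as bin E012. It had 1.02, 0.324 and 0.656% in gemin2 after 1 h against 3.21, 2.77 and 3.52% in WT, a log2 change of −2.20 ± 0.41 (adjusted p = 0.0022). The groups lay apart by more than their spread. After 24 h the shares of 0.353, 0.368 and 0.224% in gemin2 and 0.83, 1.35 and 0.553% in WT also did not overlap, but the change of −1.62 ± 0.58 missed the threshold (adjusted p = 0.115). In WT alone this exon fell by 1.90 ± 0.41 on the log2 scale between 22 °C and 24 h at 10 °C (adjusted p = 0.0119).

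Among the genes of the lists, PTB2 and LNK1 had a called exon. PTB2 encodes a polypyrimidine tract-binding protein, a splicing regulator that in plants controls an exon in its own transcript. Its bin E009, 58 nt long, had 0.401, 0.458 and 0.536% in gemin2 after 24 h against 0.985, 2.3 and 2.55% in WT. Every gemin2 library was below every WT library, with a log2 change of −2.09 ± 0.42 (adjusted p = 0.00273), while the PTB2 gene level rose by 0.58. Both adjoining introns fell, by 1.35 ± 0.38 and 1.59 ± 0.45. The bin is thin, at 5 to 11 counts in those gemin2 libraries and 7 to 42 in WT.

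LNK1 is a co-activator tied to the morning genes of the circadian clock, and its bin E007 of 130 nt was lower in gemin2 after cold. The share was 4.21, 4.94 and 4.9% in gemin2 after 1 h against 10.3, 6.24 and 7.38% in WT (log2 change −0.73 ± 0.19, adjusted p = 0.0171). After 24 h it was 2.44, 2.77 and 3.13% in gemin2 against 4.06, 5.33 and 5.29% in WT (−0.82 ± 0.20, adjusted p = 0.016). At 22 °C it was 5.1, 4.78 and 5.42% in gemin2 against 7.97, 7.34 and 9.14% in WT, and −0.68 ± 0.19 came close to the threshold (adjusted p = 0.0577). The shares did not overlap in any condition. The LNK1 gene level rose by 0.99 after 1 h and by 0.72 after 24 h, and without the locus offset the change after 1 h was 0.27, in the other direction (not past the threshold), and after 24 h it was −0.10 (not past it either). The 1 h call was lost without gemin2 library B or C or WT library A (adjusted p up to 0.118), and the 24 h call without gemin2 library B or WT library B or C (up to 0.0773).

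The other genes of the lists gave no call between gemin2 and WT. Of 12 loci of PTB, glycine-rich, U2AF and U1 factors, 2 held a member, and PTB1 had log2 changes of 0.46, 0.56 and 0.58 at 22 °C, after 1 h and after 24 h, none past the threshold. Of 20 SR and RS splicing factors, which bind exons and help to define them, 4 held a member and none was called. Of 25 clock loci only LNK1 held a member. Of 13 flowering loci 1 held a member, FLM, and of 5 loci known for a cassette exon or for nonsense-mediated decay 1 did, TFIIIA, and neither was called.

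Smaller or less steady falls completed the list for 24 h. PAT1, a GRAS regulator of phytochrome A signalling, fell in bin E003 to 1.23, 0.689 and 1.03% in gemin2 against 2.17, 3.24 and 1.89% in WT (log2 change −1.35 ± 0.38). Bin E018 of AT1G50140, a nucleoside triphosphate hydrolase, had 0.393, 0.796 and 0.972% in gemin2 against 3.05, 1.83 and 3.03% in WT (−1.72 ± 0.42). Bin E003 of EMB2759 had 2.92, 5.8 and 4.64% in gemin2 against 12.9, 7.1 and 10.7% in WT (−1.09 ± 0.26). Bin E007 of AT3G02460, a Rab GTPase-activating protein, had 4.35, 5.95 and 8.85% in gemin2 against 15.4, 12.1 and 19% in WT (−1.20 ± 0.34). The adjusted p-values of these 4 lay between 0.0121 and 0.0433, and single libraries ended each call. PAT1 was lost without gemin2 library B or C or WT library A or B (adjusted p up to 0.187), AT1G50140 without gemin2 B or WT A or C (0.0622), EMB2759 without gemin2 C or WT A or C (0.0701), and AT3G02460 without gemin2 A or B or WT A or C (0.173). Without the libraries that stood apart the calls of AT1G50140, EMB2759 and AT3G02460 were lost (adjusted p of 0.0774, 0.1 and 0.152). The EMB2759 call was lost too without the locus offset, at −0.77 (adjusted p = 0.0976).

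Falls outside the naming rule, picked after their values were seen, included those of AFC2 and SAPX. AFC2, a LAMMER kinase of the kind that phosphorylates SR proteins, had 9.06, 7.39 and 7.6% in bin E012 in gemin2 after 24 h against 15.7, 11.5 and 10.4% in WT (log2 change −0.64 ± 0.18, adjusted p = 0.0414). SAPX, the stromal ascorbate peroxidase, had 21.7, 19.6 and 19.9% in bin E009 in gemin2 against 25.7, 25.3 and 26% in WT (−0.33 ± 0.09, adjusted p = 0.0284). Both calls were lost without gemin2 library B or C or WT library A or B, and that of SAPX also without WT library C (adjusted p up to 0.202 for AFC2 and 0.128 for SAPX). AFC2 was lost as well without the libraries that stood apart (adjusted p = 0.0943) and without the locus offset (−0.43, adjusted p = 0.13).

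Further falls outside the rule came from bins of differing depth. Bin E003 of AT5G05550, a transcription factor gene, had 1.56, 1.52 and 0.485% in gemin2 after 24 h against 5.14, 5.1 and 8.97% in WT (log2 change −2.46 ± 0.56, adjusted p = 0.00756), and the call was lost without gemin2 library C (adjusted p = 0.074). Bin E006 of AT5G26110, a protein kinase gene, had 1.37, 1.86 and 0.287% in gemin2 against 3.81, 5.75 and 4.15% in WT (−2.01 ± 0.49, adjusted p = 0.0131), lost without gemin2 library C or WT library B (adjusted p up to 0.11). Those gemin2 shares rest on 1 to 6 counts per library. Bin E006 of AT1G02890, an AAA ATPase gene with far more reads, had 7.2, 8.74 and 9.57% in gemin2 against 13, 14.4 and 13% in WT (−0.66 ± 0.13, adjusted p = 0.00286), and it was called with every library left out in turn.

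SPY, a glycosyltransferase that restrains gibberellin signalling, had neighbouring exons with different calls. Bin E010 (69 nt, named after its values were seen) had 1.12, 1.2 and 0.897% in gemin2 after 24 h against 2.58, 2.86 and 3.22% in WT (log2 change −1.43 ± 0.31, adjusted p = 0.00516). Bin E009 (120 nt) had 5.82, 6.71 and 5.74% in gemin2 and 4.36, 4.52 and 5.6% in WT after 24 h, with no call. The groups of E009 lay close but apart. After 1 h it was E009 that was called, with 4.87, 5.93 and 6.05% in gemin2 against 2.54, 3.09 and 3.26% in WT (0.89 ± 0.25, adjusted p = 0.0324), a call lost without gemin2 library B or C or any WT library (adjusted p up to 0.117). Bin E010 then had 2.11, 3.66 and 2.25% in gemin2 and 1.35, 1.65 and 1.36% in WT (0.87 ± 0.29, adjusted p = 0.0713), so its shares were higher in gemin2 after 1 h, without a call, and lower after 24 h. Whether the exons differ from each other was not tested.

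Falls at 22 °C were those of AT4G08460 and of 3 other genes. Bin E003 of AT5G45350, a proline-rich family protein, had 0, 0.157 and 0.278% in gemin2 against 0.558, 1.51 and 1.25% in WT (log2 change −2.94 ± 0.69, adjusted p = 0.0213). The 0 is 0 of 3951 locus counts and allows up to 0.0759%. Bin E005 of PAA1, a copper-transporting ATPase of the chloroplast, had 2.97, 4.07 and 3.14% in gemin2 against 5.3, 7.07 and 5.72% in WT (−0.81 ± 0.17, adjusted p = 0.0101). Bin E004 of AT1G52220, a thylakoid curvature protein, had 22.5, 25.7 and 22.7% in gemin2 against 31.2, 30.4 and 32.9% in WT (−0.42 ± 0.09, adjusted p = 0.00902). All 3 showed no overlap, and in all 3 the call was lost without gemin2 library A (adjusted p up to 0.106). It was also lost without gemin2 library C for PAA1 and AT1G52220, without gemin2 library B and WT libraries B and C for AT5G45350, and without WT library B for PAA1.

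ATARI5 (ARI5 in RefSeq) is a member of the ARIADNE family of ubiquitin ligases, and its bin E004 is a coding exon of 43 nt that opens with a run of T. It was the bin called higher in gemin2 in all 3 conditions, though not the one with the largest rise. At 22 °C the share was 3.91, 3.21 and 3.59% in gemin2 against 2.04, 1.03 and 1.08% in WT (log2 change 1.36 ± 0.30, adjusted p = 0.0114). After 1 h it was 4.51, 4.81 and 4.02% in gemin2 against 2.72, 2.02 and 1.5% in WT (1.14 ± 0.24, adjusted p = 0.00654). After 24 h it was 6.1, 8.19 and 7.76% in gemin2 against 1.63, 3.21 and 3.41% in WT (1.38 ± 0.23, adjusted p = 3.73e-04). No gemin2 library overlapped WT in any condition, and the gene level rose as well, by 0.68, 0.61 and 0.91. The 22 °C call was lost without WT library B or C (adjusted p up to 0.0743).

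Bin E006 of AT5G62130, a Per1-like protein, is an exon of 79 nt that was higher in gemin2 at 22 °C and after 24 h. At 22 °C it had 4.32, 4.19 and 5.75% in gemin2 against 1.14, 2.19 and 1.88% in WT (log2 change 1.45 ± 0.36, adjusted p = 0.0297). After 24 h it had 10, 9.54 and 8.17% in gemin2 against 5.08, 3.26 and 2.88% in WT (1.35 ± 0.28, adjusted p = 0.00304). After 1 h the groups overlapped, with 14.8, 10.7 and 7.4% in gemin2 and 7.8, 5.62 and 6.06% in WT (adjusted p = 0.0584). The call at 22 °C was lost when any 1 of the 6 libraries was left out, with adjusted p up to 0.151. The neighbouring exon ahead of it in the gene, bin E007 of 108 nt, was named after its values were seen and was called after 1 h, with 2.83, 3.35 and 3.86% in gemin2 against 0.279, 1.23 and 0.739% in WT (log2 change 2.03 ± 0.52, adjusted p = 0.0171). Those WT shares rest on 1, 7 and 5 counts, and the call was lost without gemin2 library B or C or WT library A or C (adjusted p up to 0.0787).

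Bin E011 of AT2G30600, a BTB domain protein, is a coding exon of 138 nt that was higher in gemin2 at 22 °C, with 2.17, 2.18 and 2.42% against 0.98, 0.622 and 0.737% in WT (log2 change 1.55 ± 0.37, adjusted p = 0.0259). After 24 h the shares were 2.98, 3.41 and 0.801% in gemin2 and 0.843, 0.908 and 0.488% in WT, so library C of gemin2 fell within WT although the bin was called (1.58 ± 0.40, adjusted p = 0.0195). This was the sole call of the 26 with overlapping libraries. The gene level was also raised at 22 °C, by 1.96 on the log2 scale. The 22 °C call was lost when any 1 of the 6 libraries was left out (adjusted p up to 0.112), and the 24 h call without gemin2 library B or WT library B or C (up to 0.221) or without the libraries that stood apart (0.0693). The 24 h value was named after it was seen.

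After 1 h at 10 °C the other rises were mostly modest. Bin E009 of AT3G26890 had 4.42, 3.53 and 3.5% in gemin2 against 0.982, 1.45 and 1.52% in WT (log2 change 1.48 ± 0.39, adjusted p = 0.0222). Bin E023 of AT3G52140, the gene of a protein that keeps mitochondria dispersed, had 4.58, 6.42 and 5.58% in gemin2 against 3.46, 3.18 and 3% in WT (0.78 ± 0.16, adjusted p = 0.00426). Bins E019 and E020 of NAI2, a protein of endoplasmic reticulum bodies, rose by 0.52 ± 0.15 and 0.62 ± 0.16, and bin E012 of AT-SO, the sulfite oxidase, by 0.34 ± 0.10. Bin E017 of AT5G47430 rose by 0.82 ± 0.26. Calls of AT3G26890, NAI2 E019 and AT-SO were lost without gemin2 library B or C or WT library A or B (adjusted p up to 0.0919, 0.147 and 0.191), that of NAI2 E020 without gemin2 B or C or WT A (0.143), and that of AT5G47430 without any of these or WT C (0.219). Without the locus offset the change of AT-SO was −0.33, in the other direction.

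Rises outside the rule, named after their values were seen, included bin E008 of AT4G10970, a ribosome maturation factor gene, with 1.54, 3.12 and 2.45% in gemin2 after 24 h against 0.202, 0.53 and 0.683% in WT (log2 change 2.21 ± 0.48, adjusted p = 0.00582). Both of its adjoining introns rose, by 1.40 ± 0.25 and 2.20 ± 0.48. Bin E005 of AT3G33530, a WD-40 repeat protein gene, is an exon of 17 nt with 1.07, 1.33 and 1.95% in gemin2 after 1 h against 0.384, 0.512 and 0.208% in WT (1.91 ± 0.47, adjusted p = 0.0139). It was lost without gemin2 library C or WT library A or C (adjusted p up to 0.0829), and without the locus offset (0.93, adjusted p = 0.212).

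The remaining falls after 1 h were modest. Bin E003 of AT5G55060, a Rab GTPase-activating subunit, had 10.6, 7.71 and 7.61% in gemin2 against 17.8, 20.5 and 14.2% in WT (log2 change −0.998 ± 0.251, adjusted p = 0.0167). TOPII, the topoisomerase that passes DNA strands through each other, had 5.11, 4.63 and 4.3% in bin E017 in gemin2 against 7.42, 8.69 and 5.63% in WT (−0.62 ± 0.17, adjusted p = 0.0302). ATGSR2, a cytosolic glutamine synthetase, had 44.1, 37 and 37.5% in bin E004 in gemin2 against 45.9, 50.3 and 44.2% in WT (−0.24 ± 0.07, adjusted p = 0.0463). The 3 calls were lost without gemin2 library B or C or WT library A or B (adjusted p up to 0.107, 0.203 and 0.231).

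Rises in 2 genes with near copies are uncertain, since the counting could split or share their reads. AT5G11200, the UAP56b helicase that links splicing to RNA export, lies beside a near-identical copy. Its bin E008, a coding exon of 43 nt named after its values were seen, had 2.86, 2.15 and 3.14% in gemin2 after 24 h against 0.193, 0.671 and 0.243% in WT (log2 change 2.70 ± 0.40, adjusted p = 1.34e-04). Its bin E009 had 3.31, 1.34 and 2.6% in gemin2 against 0.338, 0.488 and 0.556% in WT (2.32 ± 0.45, adjusted p = 0.00184), and the gene level fell by 0.87. The introns that adjoin these exons rose as well after 24 h, by 2.23 ± 0.29, 2.61 ± 0.35 and 2.35 ± 0.45. After 1 h E008 was called at 1.50 ± 0.46, a call lost without any gemin2 library or WT library A or B (adjusted p up to 0.221) or without the libraries that stood apart (0.0795). Bin E003 of AT1G07940, an elongation factor gene overlapped by another locus, had 0.195, 0.302 and 0.275% in gemin2 after 24 h against 0.0563, 0.14 and 0.105% in WT (1.35 ± 0.30, adjusted p = 0.00712), and it rose after 1 h by 1.39 ± 0.37. Both introns that adjoin it rose too after 24 h, by 1.99 ± 0.46 and 2.35 ± 0.44. The AT1G07940 call after 1 h was lost without gemin2 library B or C or WT library A or B (adjusted p up to 0.146), and that after 24 h without gemin2 B or WT A (0.0513). Its change after 1 h without the locus offset was 0.57 and not past the threshold (adjusted p = 0.172).

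Bin E008 of AT5G41740, a disease resistance gene with a close relative, was named after its values were seen. At 22 °C it had 3.31, 1.45 and 0.858% in gemin2 from 8, 4 and 2 counts, and 0 counts in all 3 WT libraries. Over the group 14 of 751 locus counts (1.86%) fell in the bin in gemin2 and 0 of 504 in WT. A floor of 3 counts over the group allows a WT share of up to 0.595%. The pooled gemin2 share was 3.13-fold that limit. That ratio is not a lower bound, since it allows no error on the 14 gemin2 counts, 8 of them from library A. It also leaves out the spread between libraries. The adjusted p of 0.028 was lost without gemin2 library A or any WT library (up to 0.126). After 24 h the shares of 1.59, 2.36 and 2.23% in gemin2 and 3.24, 1.89 and 1.83% in WT overlapped. Its bin E010 was called after 1 h, with 2.5, 1.95 and 2.62% in gemin2 against 0.827, 0.794 and 0.701% in WT (log2 change 1.60 ± 0.37, adjusted p = 0.01), a call lost without WT library B (adjusted p = 0.0532). After 1 h E008 rose by 1.29 ± 0.38 (adjusted p = 0.0396), a call lost without gemin2 library B or C or any WT library (up to 0.161).

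Sequence features of the exons higher and lower in gemin2 were read from RefSeq. The 18 bins higher in at least 1 condition had a median width of 70.5 nt, and 10 (55.6%) were divisible by 3. The 27 lower bins had a median of 80 nt, and 12 (44.4%) were divisible by 3, beside 55.5% of the 292 bins without a call. The fifth intron base was G in 6 of the 18 higher (33.3%) and in 17 of the 27 lower bins (63%). Coding sequence in every transcript was found for 13 of the 18 and 14 of the 27. These groups were formed by the calls themselves and are small, so the values are a description.

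Introns beside the exons gave a further readout. Both neighbouring regions are listed as introns for all 337 bins. In 167 pairs of a bin and an adjoining intron, over 116 bins, the intron had enough counts for a test against the locus count. An intron between neighbouring members, such as that between E008 and E009 of AT5G11200, counts once for each bin. Called introns were mostly higher in gemin2, in 15 pairs higher and 5 lower at 22 °C, 35 and 6 after 1 h, and 43 and 8 after 24 h. Over all 9366 introns tested, each counted once, 3.88 and 0.897% were higher and lower at 22 °C, 11.9 and 1.64% after 1 h, and 14.9 and 1.57% after 24 h. The median log2 change of the adjoining introns over the pairs was 0.11, 0.37 and 0.39. Most of these introns lie beside exons with no call.

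Where exon and intron were both called, they moved the same way with 1 exception. Of the bins called and with a tested intron (8, 16 and 17), 3, 11 and 12 had a called intron, and the pairs agreed in direction in 4, 17 and 18 cases. An intron beside the AT1G13350 exon fell by 1.52, 1.81 and 3.85 on the log2 scale at 22 °C, after 1 h and after 24 h, and the exon by 1.23 (not past the threshold), 1.58 and 3.17. The intron of AT3G06760 fell by 1.77, 2.42 and 3.62 and that of AT5G53850 by 1.64, 2.36 and 2.06. For ATARI5 both introns rose, by 1.50 and 1.43 at 22 °C, 0.88 and 1.09 after 1 h, and 1.44 and 1.42 after 24 h. Reads of a kept intron that run into the exon are counted in both, so exon and intron are not independent readouts.

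The exception was AT5G47455 after 24 h, where an adjoining intron rose by 1.07 ± 0.22 (adjusted p = 9.43e-04) while the exon fell by 2.05. The other adjoining intron of that exon, at −0.15 ± 0.36, was not called. XBAT35 also parted from its introns, which were not called in any condition, with log2 differences between −0.15 and 0.75. At AT4G08460 the tested intron was at −1.07, −0.42 and −0.59, with no call, beside an exon that fell in all 3 conditions.

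**Figure D4:**
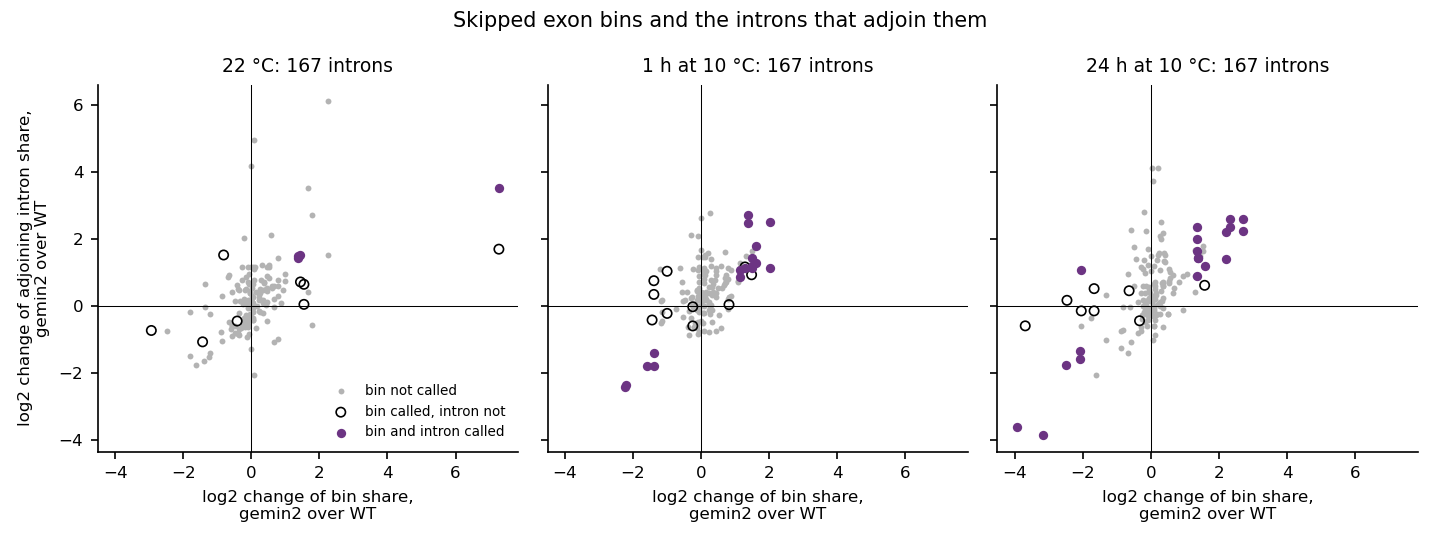
Each point is a pair of a skipped exon bin and an adjoining intron, with the log2 change of the bin share on the x axis and that of the intron share on the y axis, gemin2 over WT. There are 167 pairs in each condition, and an intron between neighbouring members appears once for each. Purple points, where bin and intron were both called, have the same sign on both axes, apart from the intron of AT5G47455 at 1.07 after 24 h.

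Bins of the class were also called between cold and 22 °C within each genotype. Some of them, such as PRP39 E009 and AVP1 E008, were called between gemin2 and WT as well, in comparisons that share libraries. In gemin2, 3 bins were higher and none lower after 1 h at 10 °C than at 22 °C, which is 0.89%, beside 0.578% of all bins (0.551% higher and 0.0263% lower). After 24 h 5 were higher and 14 lower, which is 5.64%, beside 4.33% (3.02% higher and 1.31% lower). In WT, 7 bins were higher and 8 lower after 1 h, which is 4.45%, beside 5.54% of all bins (2.39% higher and 3.15% lower). After 24 h 3 were higher and 9 lower, which is 3.56%, beside 2.94% (1.5% higher and 1.44% lower). The comparisons with 22 °C share their 22 °C libraries. No interaction was called after 1 h by edgeR's test, in the class or over all bins. In that test 23 of 337 skipped exon bins had an unadjusted p under 0.05, a lower share than 365 of all 3809 bins. DESeq2 gave 1 interaction call after 1 h in the class and 15 over all bins.

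Counts of cold calls also leaned on single libraries. In WT after 1 h they were 3 to 20 with each library left out, with 3 and 4 without library B or A after 1 h and 6 without library B or C at 22 °C. All bins gave 16, 36, 46 and 61 calls in those fits, beside 211 with every library. In WT after 24 h the class gave 3 without library C after 24 h and 6 without library C at 22 °C, and 12 at most. All bins gave 66 and 76 calls without those libraries, beside 112 with every library. In gemin2 the class gave 1 without library B at 22 °C after 1 h, and 8 to 12 after 24 h, lower without any of the 6 libraries than with all. All bins gave 8 calls and 87 to 123 calls there, beside 22 and 165 with every library. With the column letter as a replicate block the WT count after 24 h was 20, beside 198 over all bins. Without the locus offset WT gave 17 higher and 8 lower calls after 1 h, and 45 and 79 after 24 h, beside 404 and 1426 calls over all bins.

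RS40, one of the RS class of SR splicing factors that plants alone have, was called after 24 h in both genotypes. Its bin E005 is 257 nt long and lies in an untranslated region of at least 1 transcript. After 24 h the share was 0.336, 0.314 and 0.515% in gemin2 against 2.37, 2.19 and 2.19% in gemin2 at 22 °C (log2 change −2.52 ± 0.31, adjusted p = 2.45e-05). In WT it was 0.404, 0.392 and 0.294% after 24 h against 2.27, 1.88 and 3.81% at 22 °C (−2.86 ± 0.33, adjusted p = 3.74e-05). Both genotypes thus held the exon at a low share after 24 h, with no overlap with 22 °C.

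After 1 h the RS40 exon was at 1.15, 1.66 and 0.68% in gemin2 and at 0.64, 0.468 and 0.801% in WT. In WT this was a fall of 2.07 ± 0.33 on the log2 scale (adjusted p = 0.00434), and in gemin2 the change of −0.95 ± 0.28 was not called (adjusted p = 0.247). The test of the difference between those changes, the interaction, gave 1.12 ± 0.43 and was not called either (adjusted p = 0.402). Both WT calls and the gemin2 call after 24 h held under all 17 alternatives tried for each.

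Bin E002 of AT5G54940, a translation initiation factor of the SUI1 family, rose in gemin2 with cold. After 1 h it had 3.71, 4.13 and 3.64% against 1.08, 1.14 and 1.2% at 22 °C (log2 change 1.74 ± 0.28, adjusted p = 0.00262), and after 24 h 2.5, 2.71 and 4.5% (1.52 ± 0.31, adjusted p = 0.00562). The 24 h call was lost without library C after 24 h (adjusted p = 0.0643). In WT the shares were 2.71, 2.24 and 3.97% after 1 h and 1.84, 0.918 and 2.01% at 22 °C, a difference of 0.90 ± 0.30 that missed the threshold (adjusted p = 0.0768). The interaction after 1 h was 0.84 ± 0.42, with no call.

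The AT5G62130 exon rose with cold in both genotypes. After 1 h it was 1.22 ± 0.26 higher on the log2 scale in gemin2 (adjusted p = 0.024) and 1.88 ± 0.35 higher in WT (adjusted p = 0.00744), each against 22 °C, from the shares given above. The 24 h rise was 0.96 ± 0.26 in gemin2 (adjusted p = 0.0353) and 1.05 ± 0.38 in WT, which was not called (adjusted p = 0.138). The gemin2 calls were lost without 4 of the 6 libraries after 1 h, namely A and B at 22 °C and A and B after 1 h (adjusted p up to 0.223), without the libraries that stood apart (0.156), and without any 1 of the 6 after 24 h (up to 0.158).

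In WT after 1 h the other named rises were those of AVP1 (1.37 ± 0.35), the resistance gene RLM3 in bin E002 (1.18 ± 0.21), the defence regulator ACD6 in bin E003 (0.98 ± 0.24) and TOPII (0.70 ± 0.19). Falls were those of PAT1 (−1.12 ± 0.30), the phosphatase gene PP2A-3 in bin E014 (−0.99 ± 0.24), SPY E009 (−0.97 ± 0.28) and AT3G52140 (−0.83 ± 0.17). Their adjusted p-values lay between 0.00687 and 0.0431. The AVP1 shares in gemin2 were 15.5, 5.69 and 5.88% after 1 h and 6.88, 5.87 and 5.61% at 22 °C, with no call, and in WT they were 24.5, 28.9 and 16.8% after 1 h against 10.3, 9.41 and 7.44% at 22 °C. Calls of AVP1, ACD6, TOPII and PP2A-3 were lost without library B or C at 22 °C or A or B after 1 h (adjusted p up to 0.179). That of PAT1 was lost without any 1 of the 6 libraries (up to 0.166), that of SPY without A or C at 22 °C or any library after 1 h (up to 0.313), and that of AT3G52140 without library B after 1 h (0.0501). Without the locus offset the change was −0.04 for PP2A-3, 0.50 for ACD6, −0.73 for SPY and −0.93 for PAT1, none past the threshold (adjusted p between 0.0778 and 0.901).

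Named WT changes after 24 h were a rise of 3.21 ± 0.78 in bin E016 of AT5G18230, a subunit of the deadenylation complex and at 6 nt the shortest member, and falls of AT4G08460 (−1.40 ± 0.33), HEMB1 (−1.58 ± 0.39), AT5G53850 and emb2726 (−0.43 ± 0.10). Bin E016 of AT5G18230 had 2.62, 0.35 and 2.81% after 24 h against 0.126, 0.283 and 0.173% at 22 °C, so library B after 24 h lay close to 22 °C. HEMB1, an enzyme of tetrapyrrole synthesis, had 0.256, 0.507 and 0.285% in bin E003 after 24 h against 0.574, 1.99 and 0.912% at 22 °C. The AT5G18230 call was lost without any library at 22 °C or without A or C after 24 h (adjusted p up to 0.114), and that of HEMB1 without library B at 22 °C or A or C after 24 h (up to 0.149) or without the libraries that stood apart (0.0906). AT4G08460 was lost without A at 22 °C or B or C after 24 h (up to 0.174) or without the locus offset (−0.71, adjusted p = 0.167), AT5G53850 without A or C at 22 °C or C after 24 h (up to 0.0637), and emb2726 without every library but A at 22 °C (up to 0.113).

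In gemin2 after 24 h the named falls were those of PRP39 E009, AT4G08460 (−3.66 ± 0.57), RS40, AT5G47455 (−2.39 ± 0.31) and AT1G13350 (−2.23 ± 0.52), each given above with its shares. AT4G08460 fell in gemin2 by 3.66 on the log2 scale and in WT by 1.40, and the interaction of −2.26 ± 0.70 was not called (adjusted p = 0.271). For PRP39 E009 the interaction was −2.82 ± 0.82 (adjusted p = 0.242) and for AT1G13350 −1.93 ± 0.63 (adjusted p = 0.302). The AT1G13350 fall in gemin2 was lost without library C at 22 °C or B or C after 24 h (adjusted p up to 0.0887) or without the libraries that stood apart (0.178). The locus counts of AT5G47455 in gemin2 were 265, 257 and 280 after 24 h against 107, 94 and 114 at 22 °C, and without the locus offset its fall in gemin2 was −0.85 and not past the threshold (adjusted p = 0.0983). In WT its bin counts were 11, 4 and 10 at 22 °C and 86, 95 and 61 after 24 h. The WT shares were similar at both, so the locus count rose in WT as well. ATARI5 rose in gemin2 by 1.05 ± 0.21 (adjusted p = 0.00475), beside 1.04 ± 0.31 in WT (adjusted p = 0.0726).

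**Figure D5:**
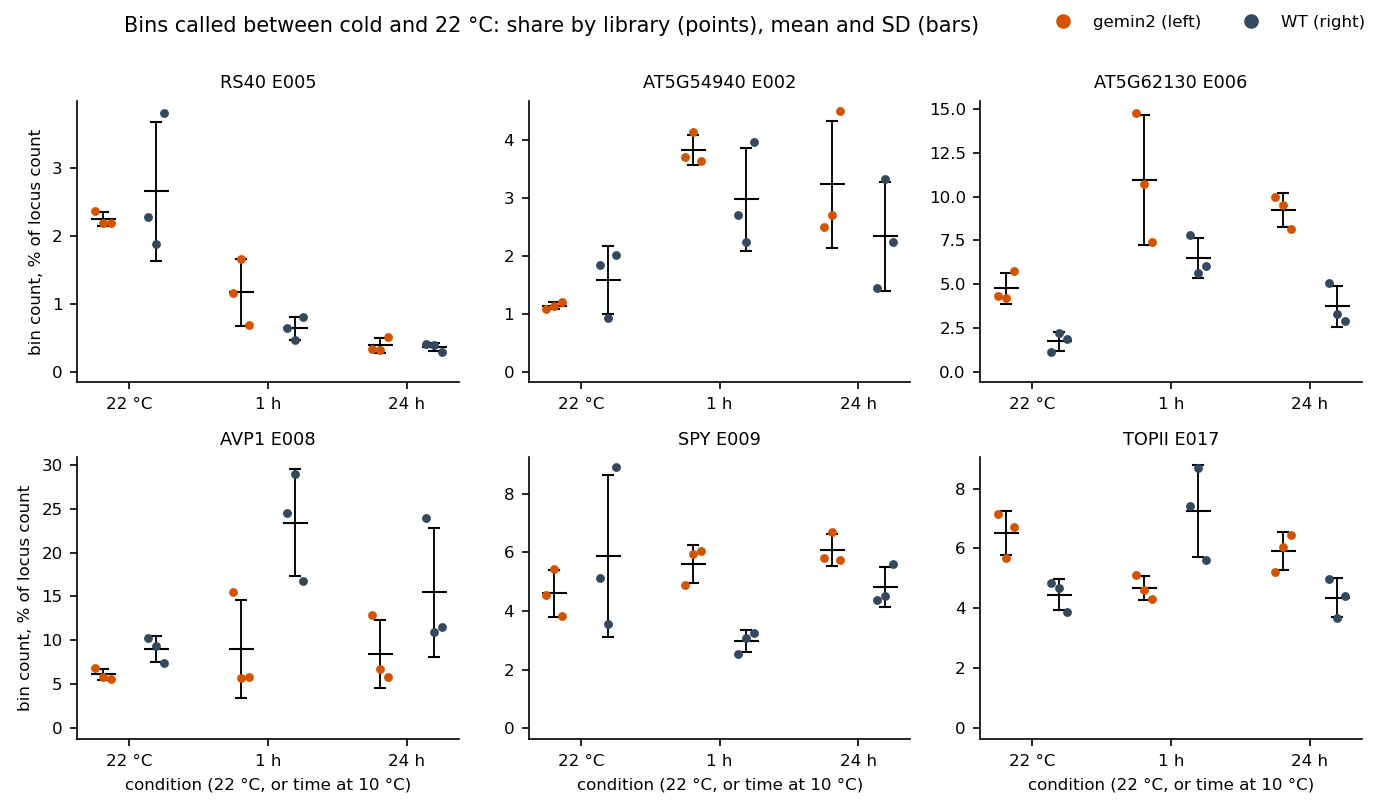
Points are libraries, with gemin2 left and WT right in each condition, and bars give mean and SD (n = 3) of the bin share in percent of the locus count for 6 exons called between cold and 22 °C. RS40 sits at 0.294 to 0.515% in all 6 libraries after 24 h, and AVP1 shows library A of gemin2 above the other gemin2 libraries after 1 h and 24 h.

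The authors' deposited tables of comparisons list bins with a log fold change whose base is not stated and a false discovery rate, which among the members reaches 0.1 at 22 °C, 0.0883 after 1 h and 0.0689 after 24 h. A rate under 0.05 is given in the authors' deposited tables for 20 of 27, 28 of 31 and 42 of 45 members listed, so their limit was looser than the one used here. At 22 °C the authors' deposited table holds 6 of the 8 bins called here (75%), which is 22.2% of the 27 members it lists. After 1 h the authors' deposited table holds 15 of 24 (62.5%), or 48.4% of 31 members, matched by position since the bin numbers of that table differ from the count table in all 31. After 24 h the authors' deposited table holds 23 of 26 (88.5%), or 51.1% of 45. Every shared bin had the same sign. For PRP39 E009 after 24 h the authors' deposited table gives −3.8 and for AT5G47455 −3.01.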

How the data were processed

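The authors deposited read counts per gene, intron and alternative splicing bin for 18 poly(A) RNA libraries, as whole numbers with no normalization. Reads were aligned with TopHat2 2.0.9 to TAIR10, per the submitters' processing notes, which also name edgeR 3.4.2 and R 3.0.2. The sources used here name neither the counting tool nor its strand setting. The authors' deposited tables of comparisons give a log fold change (taken as log2, base not stated) and a false discovery rate, read as an adjusted p-value. They were used only to count shared bins and print their fold changes.

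Bin counts were fitted in R 4.3.3 with edgeR 4.0.16 (quasi-likelihood, 6 groups, log of the locus count as offset) over all 3809 bins, with Benjamini-Hochberg adjustment. The standard error is the size of the log2 change over the root of F. Gene counts were fitted with TMM scaling over 21918 genes, and 9366 introns like the bins. CPM values of markers are gene counts scaled to the library total, and those of GEMIN2 to the TMM-scaled total. The fit was tested on simulated data. DESeq2 1.42.0, other offsets, minima, fits and adjustments, leaving out each library and a replicate block were alternatives. Depth ranged from 15675913 to 53766089 gene counts, and limits from 0 counts use 3 counts and cover counting error only.

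The members and gene lists were chosen with earlier results of these data known. Named bins were the largest changes with an adjusted p under 0.05, a mean of 20 or more counts and no overlap of libraries (up to 10 each way per genotype comparison, up to 5 per cold comparison and interaction), those called in all 3 genotype comparisons and those of list genes. Other called bins are marked as named after their values were seen.

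The labels' replicate numbers are not tied to the columns, so the column letters served as the block. Libraries of the same letter deviated together, with every correlation above 0.1, between gemin2 and WT after 24 h (0.381, 0.372 and 0.207) and between 24 h and 22 °C in WT (0.288, 0.132 and 0.122), and the pairing there comes from the letters alone.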

Additional observations from a re-analysis of the deposited data

Results flagged for a closer look

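Bin E006 of AT5G47455 stood out because its change with 24 h of cold differed between gemin2 and WT by a test of the difference itself. The genotype by 24 h cold interaction was −2.41 ± 0.43 on the log2 scale (SE, 3 libraries per group), with an adjusted p of 0.0349 in edgeR's quasi-likelihood test over all bins. Within gemin2 the bin fell by 2.39 ± 0.31 between 22 °C and 24 h at 10 °C, and in WT the change was 0.02 ± 0.31. Without the locus offset the gemin2 change was −0.85 and not past the threshold (adjusted p = 0.0983), and the locus counts in gemin2 were 265, 257 and 280 after 24 h against 107, 94 and 114 at 22 °C. The locus rose in WT too, where the bin held 11, 4 and 10 counts at 22 °C and 86, 95 and 61 after 24 h at similar shares. The interaction lost its call under 13 of 23 alternatives, 10 of them with 1 library left out. Its log2 value lay between −3.57 and −2.14 under the alternatives.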

How the results depend on the processing

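Of 58 genotype calls, 8 held under every alternative tried, and 38 were lost with at least 1 library left out (8 of 8 at 22 °C, 18 of 24 after 1 h and 12 of 26 after 24 h). Counts are given in the order gemin2 against WT at 22 °C, after 1 h and after 24 h, then 1 h and 24 h against 22 °C in WT, the same in gemin2, and the interactions. Without the locus offset they were 35, 58, 76, 25, 124, 9 and 141 with TMM (6 interactions after 24 h), beside 363, 607, 789, 404, 1426, 140 and 1539 over all bins (145 interactions). With RLE scaling they were 36, 57, 76, 28, 125, 9 and 141 (8 interactions), beside 367, 611, 785, 411, 1429, 136 and 1545 over all bins (154 interactions). In these fits bin E012 of AT-SO (AT3G01910) and bin E007 of LNK1 (AT5G64170) after 1 h turned to −0.33 and 0.27 (0.28 with RLE). Holm adjustment left 0, 1, 7, 1, 1, 1 and 3, and 0 interactions, beside 25, 36, 66, 6, 9, 8 and 31 over all bins. DESeq2 gave 15 at 22 °C and 1 interaction after 1 h, beside 138 and 15 over all bins. Fits of only the compared groups gave 16 at 22 °C, 7 in WT after 24 h and 0 interactions, beside 153, 53 and 0 over all bins. A log2 change of at least 1 left 14 after 1 h and 5 in WT after 1 h, beside 166 and 80 over all bins. Without the libraries that stood apart, chosen after seeing the data, counts were 16 at 22 °C, 40 after 1 h, 25 in WT after 1 h, 11 in gemin2 after 24 h, and 5 and 0 interactions. All bins then gave 154, 673, 390, 104, 69 and 5. With each library left out the class counts ranged from 1 to 8, 7 to 42, 18 to 43, 3 to 20, 3 to 12, 1 to 3 and 8 to 12, and 0 to 1 for each interaction. Over all bins the ranges of the first 7 were 61 to 94, 111 to 573, 145 to 403, 16 to 205, 66 to 96, 8 to 18 and 87 to 123. The cause of these shifts was not tested, though a left-out library leaves fewer samples.

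With the column letter as a replicate block, counts were 20 at 22 °C, 41 and 38 after 1 h and 24 h, and 26 and 20 in WT after 1 h and 24 h. All bins gave 170, 547, 376, 343 and 198 in these fits. The block ended none of the 85 calls named. Outside the paired comparisons the correlations of same-letter libraries ran from −0.224 to 0.268, both between gemin2 and WT after 1 h. They were all positive between gemin2 and WT at 22 °C (0.105, 0.083 and 0.052) and between 1 h and 22 °C in WT (0.099, 0.08 and 0.174). Whether the letters pair libraries there is not known.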
